A study of Mus musculus with 7 samples.

Results

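The enzymes that place and remove methyl groups on cytosine were followed in lymphoma cell lines with and without Smchd1, a chromatin protein of the structural maintenance of chromosomes family that takes part in gene silencing. The genes described are Dnmt1, Uhrf1, Uhrf2, Dnmt3a, Dnmt3b, Dnmt3l, Tet1, Tet2, Tet3 and Tdg. They were chosen by symbol, through the Entrez identifier of each row, and are 10 of the 27179 genes that every count table lists. RNA-seq was run on 7 lymphoma cell lines, derived from end-stage tumours of male C57BL/6 mice. All mice carried the Eµ-Myc transgene, in which an immunoglobulin heavy chain enhancer drives Myc in B lineage cells. The 3 Wild-type lines had intact Smchd1, and the 4 Smchd1 null lines were homozygous for a mutant allele, which the labels call a gene trap and the methods of the study write as MD1. Each line is a tumour outgrowth adapted to culture, so a value describes 1 line rather than normal B cells of that genotype. The labels do not say whether every line came from a separate mouse, so p-values measure only the spread between these lines, which may be technical in part. Wild-type replicate 1 was the only library of batch 1 and was sequenced single-end. Batch 2 held the remaining 6 libraries, all of them paired-end.

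Total counts ranged from 3626853 in wild-type replicate 1 to 7519549 in Smchd1 null replicate 4, so that 3 counts correspond to between 0.827 and 0.399 CPM (a gene's reads per 1000000 counted in its library). Smchd1 itself lay between 219 and 248 CPM in the wild-type lines and between 22.6 and 28.7 CPM in the Smchd1 null lines, a log2 fold change of -3.16 ± 0.11 (SE, FDR 2.18e-05). The summed level of 7 B cell markers ranged from 976 to 1593 CPM in 6 lines and was 512 CPM in Smchd1 null replicate 4. Markers of T cells summed to at most 0.532 CPM in any line. Markers of endothelial and stromal cells summed to 13.0 CPM in wild-type replicate 1 and to at most 2.63 CPM elsewhere. Markers of myeloid cells summed to 32.3 CPM in Smchd1 null replicate 2 and to between 4.14 and 15.7 CPM in the other lines. Wild-type replicates 2 and 3 lay much closer to each other than any other pair, with a chi-square per degree of freedom of 3.82 between their counts, against 17.4 to 61.6 for the other pairs within a group. In the voom fit with sample weights, these libraries received weights of 3.79 and 3.06, while the weight of wild-type replicate 1 was 0.246 and that of Smchd1 null replicate 4 was 0.249.

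In mammals, methylation of cytosine in CpG dinucleotides is copied after DNA replication by the maintenance methyltransferase DNMT1, which is brought to the newly made strand by UHRF1, a protein that recognises hemimethylated CpG and ubiquitinates histone H3. DNMT3A and DNMT3B set methylation on unmethylated DNA, and DNMT3L, which has no catalytic activity of its own, stimulates them in germ cells and early embryos. The TET proteins oxidise 5-methylcytosine to 5-hydroxymethylcytosine and further forms, and the glycosylase TDG cuts out the most oxidised forms so that base excision repair can restore cytosine. In blood cells DNMT3A and TET2 are best known as genes that are often mutated in clonal expansion and in leukaemia and lymphoma, and DNMT1 and UHRF1 rise with proliferation.

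The annotated starts of these genes span a wide range of CpG content. All 10 genes matched the RefSeq table of promoter windows (GRCm38.p6, the build of mm10), which holds 32851 windows running from 250 bases before to 50 bases after a gene start, and the 10 genes have 17 windows among them. The median window holds 7 CG dinucleotides. The richest window of Tet2 held 57 CG, that of Dnmt3a 47, those of Dnmt1 and Uhrf1 33, that of Dnmt3b 30, that of Uhrf2 28, that of Tdg 26 and that of Tet3 22. The window of Tet1, also nearly silent, held 17, which 31.4% of all windows reach or exceed, close to the 23.1% for Tet3. The richest of the 3 windows of Dnmt3l, the gene without a single read, held 6, a number that 56.4% of all windows reach or exceed, against 0.2% for the window of Tet2. The counts do not tell which annotated start was used. The windows do not cover every start, as the spans given below for Dnmt3a, Tet2 and Tet3 begin outside all windows of these genes. The Tet2 and Dnmt3a stretches shown next therefore lie within those spans. The 100 bases just before a start are shown for 4 genes with CG in capitals, taking the richest window in which they overlap no annotated exon, to set the called genes Tet2 and Dnmt3a and the abundant Uhrf1 beside the silent Dnmt3l. The Tet2 stretch (minus strand) lies at chr3:133544391-133544490, that of Dnmt3a (plus strand) at chr12:3806880-3806979, that of Uhrf1 (plus strand) at chr17:56304213-56304312 and that of Dnmt3l (plus strand) at chr10:78042187-78042286.
Tet2: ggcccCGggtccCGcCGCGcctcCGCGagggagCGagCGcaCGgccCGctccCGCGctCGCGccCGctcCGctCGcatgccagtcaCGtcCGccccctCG
Dnmt3a: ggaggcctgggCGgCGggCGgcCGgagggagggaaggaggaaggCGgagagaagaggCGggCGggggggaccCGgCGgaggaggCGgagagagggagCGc
Uhrf1: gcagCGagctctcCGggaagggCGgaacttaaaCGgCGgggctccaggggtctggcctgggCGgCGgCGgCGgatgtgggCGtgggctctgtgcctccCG
Dnmt3l: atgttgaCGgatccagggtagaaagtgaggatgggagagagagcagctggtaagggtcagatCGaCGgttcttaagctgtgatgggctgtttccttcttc
These stretches hold 20, 11, 11 and 3 CG. By the same rule, stretches not shown hold 5 CG for the abundant Dnmt1, from a window of 12, 12 for Uhrf2 and 14 for Dnmt3b. The 4 shown therefore do not stand for all members. The E-box CACGTG, the letters bound by MYC with MAX and by other factors of that class, reads the same on both strands and was found in 3 of the 17 windows, belonging to 3 of the 10 genes, and in 7.15% of all windows. It stood 28 bases before the listed start of Tdg, 80 bases before 1 of the 3 listed starts of Dnmt3a. For Dnmt3l it stood 44 bases before 1 of the 3 listed starts.

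Per length, the maintenance genes were the most abundant of the 10. Levels were divided by the deposited gene length and are given as CPM per kb over all 7 lines. Dnmt1 stood at 93.1 ± 14.8 and Uhrf1 at 86.54 ± 19.13 (SD, n = 7), and these overlapped, with Dnmt1 higher in 5 of 7 lines. Uhrf2 followed at 46.9 ± 11.7 and Tdg at 25.7 ± 2.86, each without overlap with its neighbours in the order. Tet3 at 8.99 ± 2.42 and Dnmt3a at 8.62 ± 2.51 did not differ beyond their spread, and Tet3 was the higher one in 3 of 7 lines, Smchd1 null replicates 1 to 3. In the wild-type lines the mean of Dnmt3a was 10.6 ± 2.4 and that of Tet3 7.86 ± 0.63 CPM per kb, and in the Smchd1 null lines 7.09 ± 1.26 and 9.85 ± 3.03. The wild-type means of Dnmt1 and Uhrf1 also stood in the other order, at 88.7 ± 17.7 and 92.2 ± 25.5. Dnmt3b at 4.52 ± 1.03 overlapped with Dnmt3a, which was higher in 6 lines, and with Tet2 at 2.698 ± 0.842, which was lower in all 7. Tet1 at 0.0062 ± 0.0089 and Dnmt3l at 0 stood at the bottom. Leaving out wild-type replicate 1 did not alter this order.

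**Figure D1:**
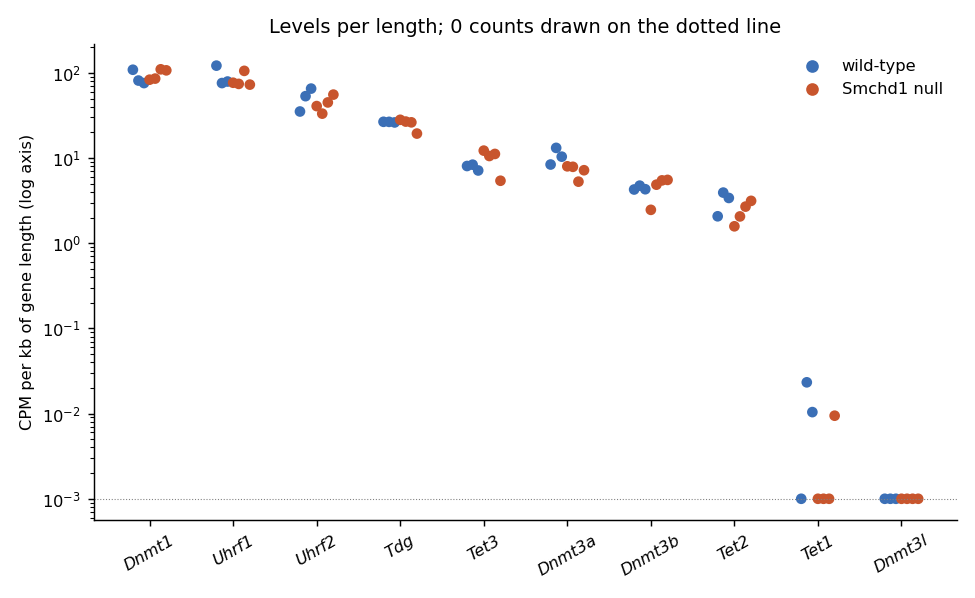
Level per length of the 10 genes, in CPM per kb on a log axis, with 1 point per line (blue, wild-type; orange, Smchd1 null) and 0 counts drawn on the dotted line. Dnmt1 and Uhrf1 lie highest, at 93.1 and 86.5 CPM per kb on average, and Tet1 and Dnmt3l lie far below the other 8.

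Of the maintenance genes, none passed the threshold between genotypes. A false discovery rate (FDR, the Benjamini-Hochberg adjusted p of the fit over all tested genes) under 0.05 is called differentially expressed here. Dnmt1 (chr9:20907206-20959888, minus strand) was at 686, 512 and 479 CPM in wild-type replicates 1 to 3 and at 524, 540, 694 and 675 CPM in Smchd1 null replicates 1 to 4. The groups overlapped, and the highest levels were in wild-type replicate 1 and Smchd1 null replicates 3 and 4. The log2 fold change was 0.19 ± 0.11 (FDR 0.28). The same 3 lines had the highest summed level of 15 S phase genes, at 3900, 4346 and 4053 CPM, against 3460 to 3739 CPM in the other 4, and the part of this in the level of Dnmt1 was not tested.

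Uhrf1 (chr17:56303337-56323486, plus strand) was at 444, 277 and 289 CPM in the wild-type lines and at 280, 271, 385 and 266 CPM in the Smchd1 null lines. Wild-type replicate 1 and Smchd1 null replicate 3 stood above the other 5, which lay between 266 and 289 CPM. Its log2 fold change was 0.040 ± 0.13 (FDR 0.87). Uhrf1 relative to Dnmt1, both per length, ranged from 0.68 in Smchd1 null replicate 4 to 1.12 in wild-type replicate 1.

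Uhrf2 (chr19:30030430-30093726, plus strand) encodes a relative of UHRF1 that binds hydroxymethylated DNA and does not stand in for UHRF1 in maintenance. It was at 125, 189 and 231 CPM in the wild-type lines and at 144, 118, 159 and 197 CPM in the Smchd1 null lines. Wild-type replicate 3 was highest and Smchd1 null replicate 2 lowest, and the groups overlapped. This gave a log2 fold change of -0.56 ± 0.17 (FDR 0.068). Within batch 2 it was -0.61 ± 0.16 and passed the threshold (FDR 0.047), as it did at -0.60 ± 0.17 when genes with fewer than 10 counts in any line were left out (FDR 0.042). The wild-type lines of batch 2 are only the closely alike replicates 2 and 3. With these summed and wild-type replicate 1 kept, the value was -0.23 ± 0.31 (FDR 0.96). Without wild-type replicate 2 or 3 the value was -0.26 (FDR 0.97) or -0.13 (FDR 0.97), and without Smchd1 null replicate 2 it was -0.35 (FDR 0.30). Uhrf1 was 1.21 to 3.45 times as abundant as Uhrf2 per length, with the highest ratio in wild-type replicate 1.

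Among the de novo methyltransferases, Dnmt3a was lower in the Smchd1 null lines. Dnmt3a (chr12:3801559-3914443, plus strand) was at 82.7, 130 and 102 CPM in the wild-type lines and at 78.8, 77.7, 52.1 and 70.9 CPM in the Smchd1 null lines. Every Smchd1 null line lay below every wild-type line, with wild-type replicate 1 just above Smchd1 null replicate 1. On CPM scaled with TMM factors, which correct for differences in library composition, the groups overlapped. The mean was 105 ± 23.6 CPM (SD, n = 3) in wild-type and 69.9 ± 12.4 CPM (n = 4) in Smchd1 null lines, a ratio of 0.67. The log2 fold change was -0.70 ± 0.17 (FDR 0.038), and within batch 2 it was -0.70 ± 0.17 (FDR 0.040). The wild-type lines of batch 2 are only the closely alike replicates 2 and 3. With these summed and wild-type replicate 1 kept, the value was -0.46 ± 0.29 (FDR 0.90). In bulk RNA, fewer cells that express a gene and less RNA per cell cannot be told apart. An antisense transcript within the gene, Dnmt3aos, had at most 1 count in any line.

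The call of Dnmt3a depended on the weighting and on single lines. The value was -0.58 ± 0.22 with voom alone (FDR 0.38), -0.58 with the quasi-likelihood test of edgeR (FDR 0.37) and -0.59 ± 0.25 with DESeq2 (FDR 0.22). Without wild-type replicate 2 it was -0.34 (FDR 0.93), without wild-type replicate 3 it was -0.53 (FDR 0.85), and without Smchd1 null replicate 1, 2, 3 or 4 the FDR was 0.061, 0.075, 0.074 or 0.052. The direction was the same in all of these. Voom alone and edgeR each called only 0.0975% of all tested genes, and DESeq2 3.21% of those with an adjusted p. For the fits without a line, the share of all tested genes called is not given.

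Dnmt3b (chr2:153649411-153687730, plus strand) was at 18.5, 20.5 and 18.6 CPM in the wild-type lines and at 10.7, 21.04, 23.6 and 23.9 CPM in the Smchd1 null lines. Smchd1 null replicate 1 was lowest and the other 3 Smchd1 null lines lay above every wild-type line. Its log2 fold change was -0.13 ± 0.23 (FDR 0.74), and without Smchd1 null replicate 1 it was 0.21 ± 0.15 (FDR 0.40). Per length, Dnmt3a was 1.96 to 2.78 times Dnmt3b in the wild-type lines and 0.97 to 3.24 times in the Smchd1 null lines, with the lowest ratio in replicate 3 and the highest in replicate 1. Of the 100-base windows of the longest Dnmt3b transcript, 5.7% are found unchanged in Dnmt3c, a germline methyltransferase gene that has no row in the tables. Dnmt3l (chr10:78042287-78063622, plus strand) had 0 counts in all 7 libraries, which allows a level of up to 0.399 CPM in the deepest of them. Dnmt1 made up 81.9 to 89.6% of the summed per-length level of Dnmt1, Dnmt3a and Dnmt3b in the wild-type lines and 87.0 to 91.1% in the Smchd1 null lines.

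**Figure D2:**
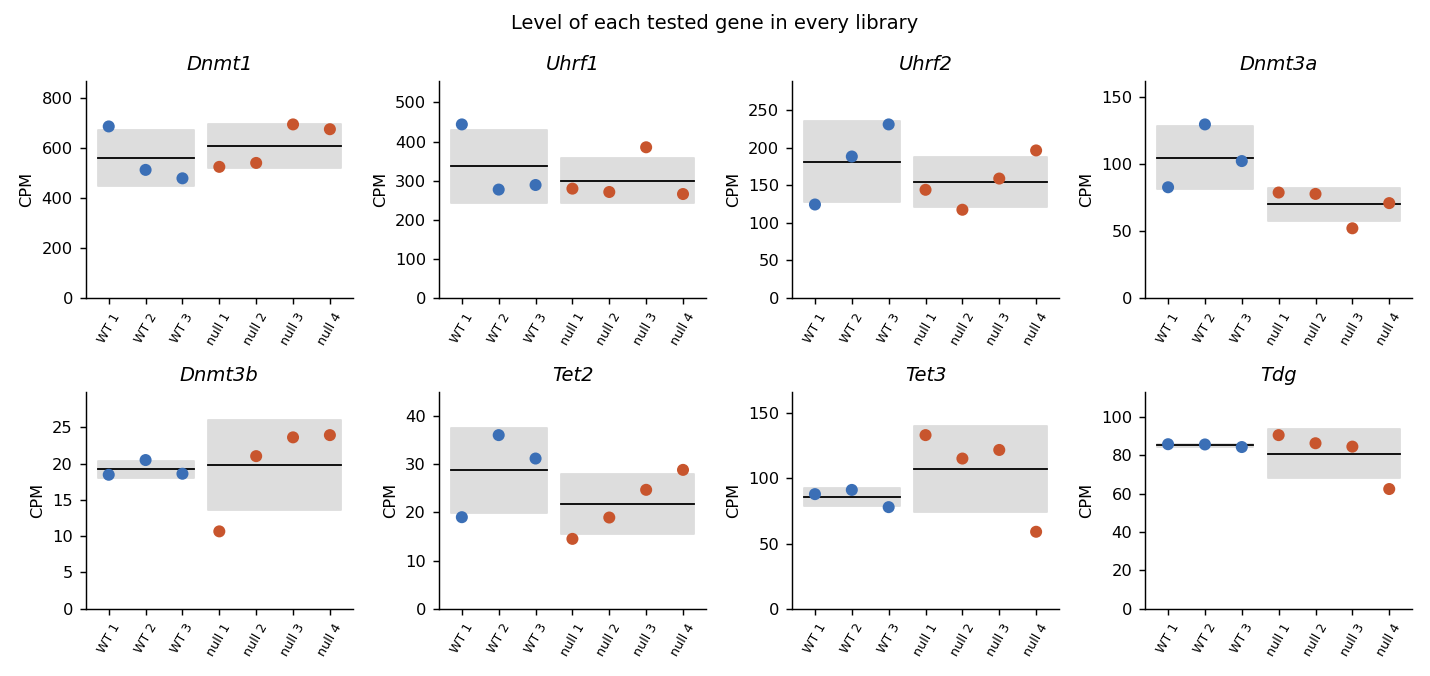
CPM of the 8 tested genes in each of the 7 lines (blue, wild-type, n = 3; orange, Smchd1 null, n = 4), with the group mean as a line and 1 SD as a grey band, each axis starting at 0. For Dnmt3a the orange points lie below the blue ones, at 52.1 to 78.8 against 82.7 to 130 CPM, and for the other 7 genes the groups overlap.

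Of the TET dioxygenases, Tet2 was lower in the Smchd1 null lines and Tet1 was at the limit of detection. Tet1 (chr10:62804570-62887469, minus strand) had 0, 2 and 1 counts in the wild-type lines and 0, 0, 0 and 1 in the Smchd1 null lines, all under 3 counts, so no fold is given. Tet2 (chr3:133463677-133545136, minus strand) was at 19.0, 36.1 and 31.2 CPM in the wild-type lines and at 14.5, 19.0, 24.7 and 28.9 CPM in the Smchd1 null lines. Wild-type replicates 2 and 3 were highest and the heavily down-weighted wild-type replicate 1 lay among the Smchd1 null lines, so the groups overlapped. The mean was 28.8 ± 8.79 CPM (SD, n = 3) in wild-type and 21.8 ± 6.31 CPM (n = 4) in Smchd1 null lines, a ratio of 0.76. The log2 fold change of the weighted fit was -0.79 ± 0.20 (FDR 0.040), and within batch 2 it was -0.81 ± 0.19 (FDR 0.035). The wild-type lines of batch 2 are only the closely alike replicates 2 and 3. With these summed and wild-type replicate 1 kept, the value was -0.52 ± 0.37 (FDR 0.91).

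The call of Tet2 also rested on the weights. The value was -0.44 ± 0.31 with voom alone (FDR 0.63), -0.41 with edgeR (FDR 0.67) and -0.41 ± 0.36 with DESeq2 (FDR 0.74). Without wild-type replicate 2 or 3 it was -0.37 (FDR 0.96) or -0.50 (FDR 0.89). Without Smchd1 null replicate 1 or 2 it was -0.54 (FDR 0.16) or -0.63 (FDR 0.18). As for Dnmt3a, voom alone and edgeR called 0.0975% of all tested genes each, and DESeq2 3.21% of those with an adjusted p. The share called in the fits without a line is not given.

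Tet3 (chr6:83362373-83457208, minus strand) was at 88.0, 91.2 and 78.0 CPM in the wild-type lines and at 133, 115, 122 and 59.1 CPM in the Smchd1 null lines. Smchd1 null replicates 1 to 3 lay above every wild-type line and replicate 4 below all of them. Its log2 fold change was 0.45 ± 0.16 (FDR 0.10). Without Smchd1 null replicate 4, the line with the lowest summed level of B cell markers, it was 0.51 ± 0.12 and passed the threshold (FDR 0.035), and the part of that line's marker levels in the result was not tested. Per length, Tet3 relative to Tet2 was 3.89, 2.13 and 2.10 in the wild-type lines and 7.73, 5.12, 4.15 and 1.72 in the Smchd1 null lines. The ratio was lowest in Smchd1 null replicate 4 and highest in Smchd1 null replicate 1, and the groups overlapped.

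Tdg (chr10:82629814-82650799, plus strand) was at 85.8, 85.6 and 84.3 CPM in the wild-type lines and at 90.5, 86.3, 84.5 and 62.4 CPM in the Smchd1 null lines. The 6 lines other than Smchd1 null replicate 4 lay between 84.3 and 90.5 CPM, above that line. Its log2 fold change was -0.0012 ± 0.099 (FDR 0.995). Counts of Tdg are uncertain because 38.1% of the 100-base windows of its longest transcript occur unchanged in transcripts of other genes, against 7.1% for Uhrf1, 5.7% for Dnmt3b and 0 for the other 7. A pair of processed copies has rows of their own, Tdg-ps (chr15:82516295-82519242) and Tdg-ps2 (chr10:42052558-42055453). Both carry a run of 364 bases identical to bases 563 to 926 of the 1263 coding bases of Tdg, longer than a read. Of the 100-base windows of the longest Tdg transcript, 28.6% occur unchanged in Tdg-ps, 19.7% in Tdg-ps2 and 17.5% in another gene, Gm5597. The 60 bases from coding base 887 on (GRCm38) were taken at the end of the shared run, so they do not stand for the whole transcripts. The only base that differs is in capitals.
Tdg: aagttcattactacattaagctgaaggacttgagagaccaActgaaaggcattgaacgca
Tdg-ps: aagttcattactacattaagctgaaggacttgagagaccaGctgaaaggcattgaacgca
Tdg-ps2: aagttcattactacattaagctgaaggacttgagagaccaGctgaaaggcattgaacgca
These stretches lie at chr10:82647283-82647342 (plus strand), chr15:82517298-82517357 (plus strand) and chr10:42054433-42054492 (minus strand). Tdg-ps was at 0, 16.1 and 16.1 CPM in the wild-type lines and at 18.7, 18.8, 16.5 and 9.44 CPM in the Smchd1 null lines. Tdg-ps2 was at 151, 74.1 and 72.1 CPM and at 71.7, 69.4, 68.3 and 45.6 CPM. In the single-end library Tdg-ps had no count and Tdg-ps2 548 counts, while in the 6 paired-end libraries the ratio of Tdg-ps to Tdg-ps2 lay between 0.207 and 0.271. The paired-end wild-type replicates 2 and 3, at 0.217 and 0.224, lay within the range of the Smchd1 null lines. The layout of wild-type replicate 1 cannot be told apart from its batch or from the line itself. Tdg summed with both copies had a log2 fold change of -0.05 ± 0.11 (FDR 0.79).

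**Figure D3:**
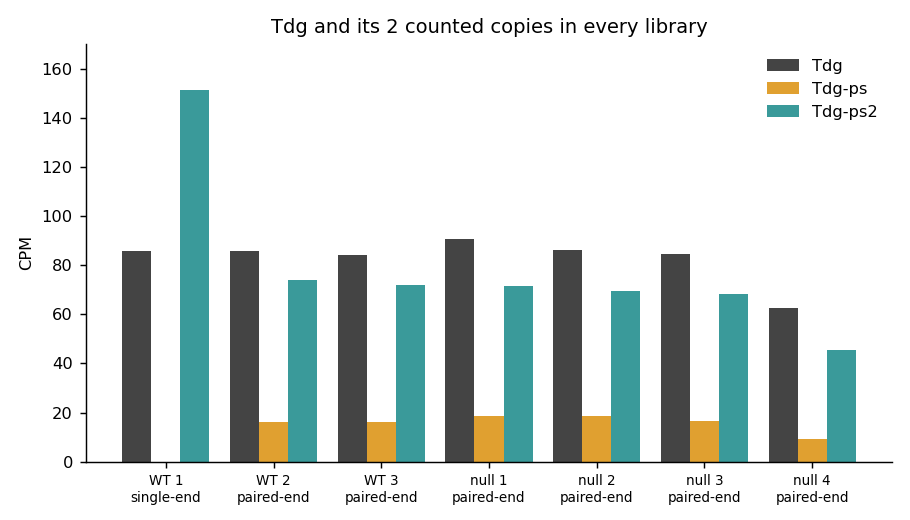
CPM of Tdg and of its processed copies Tdg-ps and Tdg-ps2 in each line, with bars starting at 0 and the read layout under each line. Tdg lies between 84.3 and 90.5 CPM in 6 lines, while Tdg-ps is at 0 and Tdg-ps2 at 151 CPM only in the single-end library.

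Over the 10 genes, 8 passed the filter on low counts (at least 0.5 CPM in 3 or more lines), which Dnmt3l and Tet1 did not. Of the 8, 2 were called, both lower in Smchd1 null lines. Among all 12303 tested genes 11.9% were called in either direction and 6.85% lower. The median log2 fold change of the 8 was -0.07, against -0.0058 over all tested genes. The groups did not overlap for 1 of the 8, Dnmt3a, against 13.2% of all tested genes in either direction and 6.85% lower. With voom alone and with edgeR none of the 8 was called, where 0.0975% of all tested genes were called by each, and at an unadjusted p under 0.05 each had 1 of the 8, Dnmt3a, against 11.5% of all tested genes in edgeR and 11.3% in voom alone. DESeq2 called none of the 8 and 3.21% of the 11900 genes to which it gave an adjusted p.

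**Figure D4:**
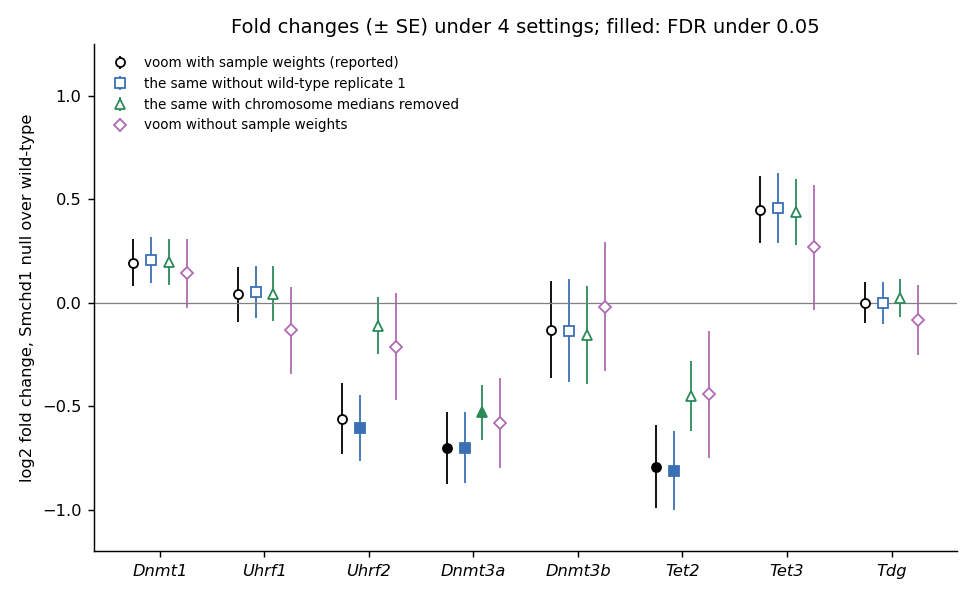
Log2 fold change (Smchd1 null over wild-type) of the 8 tested genes with its SE, in the reported fit, in batch 2 alone, with chromosome medians removed and without sample weights, with filled markers where the FDR was under 0.05. Dnmt3a and Tet2 are filled in the reported fit at -0.70 and -0.79, and without sample weights no marker is filled.

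The 3 members with the lowest FDR, Dnmt3a, Tet2 and Uhrf2, lie on chromosomes whose median gene stood apart in 1 or 2 lines. For each line, the median over the genes of a chromosome (those above a mean log2 CPM of 2) of the log2 CPM relative to each gene's median over the 7 lines was taken. On chromosome 19, which carries Uhrf2, the median of 363 genes was 0.35 and 0.50 in wild-type replicates 2 and 3 and between -0.15 and -0.01 in the other 5 lines. There, 92.3% of the genes had a negative log2 fold change and 42.1% were called. On chromosome 3, which carries Tet2, the median of 440 genes was -0.39 and -0.40 in Smchd1 null replicates 1 and 2 and between 0 and 0.18 in the other lines, with 88.4% negative and 20.5% called. On chromosome 12, which carries Dnmt3a, wild-type replicate 2 stood at 0.26 and the other lines between -0.10 and 0.05, with 81.6% negative and 14.6% called. On chromosomes 9, 17, 2, 6 and 10, which carry Dnmt1, Uhrf1, Dnmt3b, Tet3 and Tdg, all medians lay between -0.07 and 0.06. Such shifts were not particular to chromosomes that carry members. Chromosome 13 stood at -0.70 in wild-type replicate 1, and chromosomes 15 and 16 at 0.43 and 0.36 in Smchd1 null replicate 4. Chromosome 18 stood at 0.41 and 0.35 in Smchd1 null replicates 3 and 4.

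With these medians subtracted from each line before the fit, which called 9.7% of all tested genes, the log2 fold change of Uhrf2 was -0.11 ± 0.14 (FDR 0.62), that of Tet2 was -0.45 ± 0.17 (FDR 0.12) and that of Dnmt3a was -0.53 ± 0.13 (FDR 0.045). That of Tet3 was 0.44 ± 0.16 (FDR 0.11). Within 10 Mb on either side of Uhrf2, 47 of 54 genes had a negative log2 fold change, with a median of -0.52, and within 10 Mb of Tet2 it was 34 of 43, with a median of -0.29. Around Dnmt3a it was 26 of 34, with a median of -0.20. The number of copies of these chromosomes was not measured, and its part in the results was not tested.

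**Figure D5:**
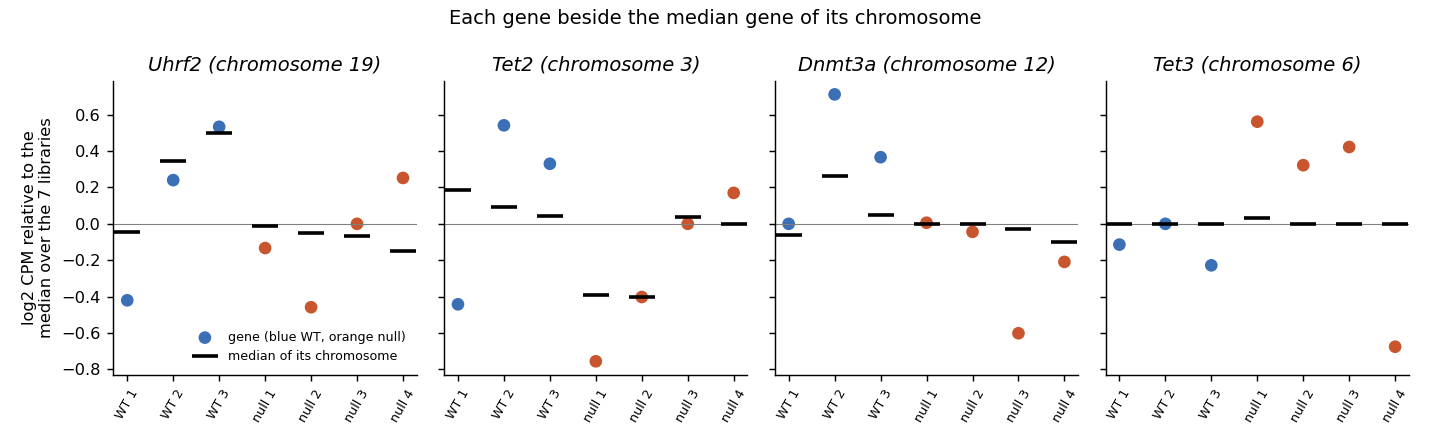
Log2 CPM of Uhrf2, Tet2, Dnmt3a and Tet3 in each line relative to the gene's median over the 7 lines (points; blue, wild-type, and orange, Smchd1 null), beside the median of all genes of the same chromosome (black bars). The bars of chromosome 19 stand at 0.35 and 0.50 in wild-type replicates 2 and 3, those of chromosome 3 at -0.39 and -0.40 in Smchd1 null replicates 1 and 2, and those of chromosome 6 near 0 throughout.

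The genes around these enzymes were described by lists. Of 13 partners and recruiters, 11 were tested and only Pcna was called. Pcna, the replication clamp that also binds DNMT1, was at 171, 228 and 225 CPM in the wild-type lines and at 297, 326, 379 and 373 CPM in the Smchd1 null lines, without overlap, and its log2 fold change was 0.56 ± 0.10 (FDR 0.018). The list's median was 0.09. Of 8 readers of methylated CpG none was called and 1 had an unadjusted p under 0.05 in both edgeR and voom alone (11.5% and 11.3% of all tested genes), with a median of 0.04.

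Of 10 regulators of TET and TDG and genes of cofactor supply, 9 were tested and Ogt was called lower. Ogt encodes the O-GlcNAc transferase that binds TET proteins. It was at 301, 299 and 287 CPM in the wild-type lines and at 171, 198, 255 and 245 CPM in the Smchd1 null lines, without overlap, with a log2 fold change of -0.53 ± 0.12 (FDR 0.029) and a list median of -0.27. Of 15 base excision repair genes, 14 were tested and Parp1, a sensor of strand breaks, was called lower at -0.57 ± 0.12 (FDR 0.024), with a median of 0.13. The groups overlapped for Parp1, with Smchd1 null replicate 4 at 953 CPM and wild-type replicate 1 at 939 CPM. Parp1 lies on chromosome 1, where 24.3% of genes were called, and with chromosome medians removed its FDR was 0.043. Of 4 AID and APOBEC deaminases, Apobec2 was called lower at -2.38 ± 0.62 (FDR 0.045), from 32.5, 11.2 and 17.9 CPM to 6.66, 3.37, 0.927 and 0.399 CPM, the last of which is 3 counts. It was called in none of the 7 fits that each left out a line, with FDR from 0.051 (without wild-type replicate 1) to 0.76 (without wild-type replicate 2), and the FDR was 0.051 with chromosome medians removed. The median of this list was -0.58.

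Of 16 genes of methyl donor supply, 14 were tested, 2 were called higher and 1 lower, with a median of 0.20. Ahcyl1, which encodes a protein related to S-adenosylhomocysteine hydrolase that acts in calcium signalling, lies on chromosome 3 like Tet2. It was at 474, 413 and 406 CPM in the wild-type lines and at 209, 220, 263 and 260 CPM in the Smchd1 null lines, without overlap, with a log2 fold change of -0.86 ± 0.09 (FDR 0.0042), which was -0.51 with chromosome medians removed (FDR 0.013). Mat2b, the regulatory subunit of methionine adenosyltransferase, was higher at 0.38 ± 0.09 (FDR 0.035) and without overlap. Shmt1, the cytosolic serine hydroxymethyltransferase, was called higher at 0.71 ± 0.17 (FDR 0.035), although its groups overlapped and wild-type replicate 1 had the highest level of all lines at 308 CPM. Of 15 S phase genes, Mcm6, a subunit of the replicative helicase, was called lower at -0.47 ± 0.11 (FDR 0.030), with a list median of 0.04. It lies on chromosome 1, where 24.3% of genes were called, and with chromosome medians removed its FDR was 0.061. Beside these, 11.9% of all tested genes were called and their median was -0.0058. None of the 8 genes called in these lists was called by edgeR or by voom alone, and DESeq2 called 4 of them, Ahcyl1 (FDR 1.39e-07), Pcna (FDR 0.0037), Mat2b (FDR 0.034) and Apobec2 (FDR 0.039). None of the 8 was called when wild-type replicate 2 or 3 was left out (FDR 0.53 to 0.97). Without Smchd1 null replicate 1 or 2 the calls of Ogt, Parp1, Mat2b, Shmt1 and Mcm6 were lost too (FDR 0.091 to 0.18), without replicate 2 that of Pcna (FDR 0.054) and without replicate 3 those of Mat2b (FDR 0.056) and Shmt1 (FDR 0.062).

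Germline genes whose promoters are kept silent by methylation were described as a list of genes that B cells do not normally express. Of 13 such genes, 8 had 0 counts in all 7 lines and 3 passed the filter, none of them called. Their log2 fold changes went both ways, at 1.23 ± 0.40 for Brdt (FDR 0.077), -0.05 ± 0.66 for Ddx4 (FDR 0.97) and -1.27 ± 0.78 for Sycp3 (FDR 0.30), genes named after their values were seen. Brdt was at 1.38, 0.82 and 1.91 CPM in the wild-type lines and at 2.67, 3.05, 2.78 and 5.05 CPM in the Smchd1 null lines, without overlap, and it was the 1 of the 3 with an unadjusted p under 0.05 in edgeR and in voom alone, beside 11.5% and 11.3% of all tested genes. Of 7 B cell markers, Cd79a was called higher at 0.96 ± 0.25 (FDR 0.044) and Ebf1 lower at -0.67 ± 0.18 (FDR 0.049). Among all tested genes 11.9% were called. The groups overlapped for both markers, and Cd79a in Smchd1 null replicate 4, at 100 CPM, lay below every wild-type line. Neither was called by edgeR (FDR 0.60 and 0.47), voom alone (FDR 0.75 and 0.44) or DESeq2 (FDR 0.54 and 0.37). None of 5 T cell markers passed the filter. Of the myeloid markers 3 passed, of the endothelial and stromal markers 1 and of the erythroid markers 1, none of them called.

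The genes whose profile over the 7 lines was closest to that of a called member were found by the root mean square difference of mean-centred log2 CPM. For Tet2 these were Cradd at 0.0806, Ppard at 0.0923 and Pkn2 at 0.14, where Pkn2 lies on chromosome 3 and the others on chromosomes 10 and 17. Ppard, a lipid-sensing nuclear receptor, was at 25.6, 46.4 and 41.2 CPM in the wild-type lines and at 19.8, 23.4, 27.8 and 34.7 CPM in the Smchd1 null lines. Wild-type replicates 2 and 3 were highest and Smchd1 null replicate 1 lowest, as for Tet2, a likeness that the choice by profile favours. For Dnmt3a they were E130308A19Rik at 0.106, a gene without a symbol at 0.11 and Uqcc3, an assembly factor of respiratory complex III, at 0.111. Uqcc3 was at 20.4, 33.1 and 29.8 CPM in the wild-type lines and at 21.9, 23.1, 16.2 and 20.1 CPM in the Smchd1 null lines.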

How the data were processed

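Total RNA of each line was sequenced from Illumina TruSeq libraries. The authors aligned reads to mm10 with Subread and summarised them per Entrez gene with featureCounts, and the deposited values are raw counts with a gene length beside each. Strand and multi-mapping settings are not given in the sources used here, so counts of genes with near-identical copies or overlapping genes are uncertain, and single reads can be harder to place than pairs.

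Symbols and coordinates came from RefSeq (GRCm38.p6), which named 25275 of 27179 genes, holding 98.2% of counts. Stretches shared between transcripts were searched in GENCODE M21 as exact 100-base matches on the forward strand. The filter kept the 12303 genes that reached 0.5 CPM in 3 samples. Counts were normalised by TMM and fitted with voomWithQualityWeights, lmFit and eBayes in limma (version 3.58.1) with edgeR (version 4.0.16) in R (version 4.3.3), Smchd1 null against wild-type with no covariate, with Benjamini-Hochberg FDR under 0.05. CPM used the total count of each library. The fits were tested on simulated counts. There, wild-type replicates 2 and 3 were drawn no more alike than Smchd1 null replicates 1 to 3, so their closeness was not covered. Alternatives were voom alone, block weights, removal of wild-type replicate 1 with Smchd1 null replicate 4, DESeq2 (version 1.42.0), edgeR's quasi-likelihood test, RLE normalisation, other filters, an FDR of 0.1, a replicate block, wild-type replicates 2 and 3 summed, and each line left out. Subtraction of chromosome medians, the summing of Tdg with its copies, TMM-scaled CPM for overlap, and edgeR or voom alone within batch 2 were chosen after seeing the data. All 10 members are described, with Smchd1, every called gene of a list (at most 6 a list), and the 3 genes closest in profile to each called member. Members and lists were chosen with earlier results of these data known. The results of 1 other gene of the marker lists are not reported here.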

Additional observations from a re-analysis of the deposited data

Results flagged for a closer look

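In the Smchd1 null group, 22 values were screened for a line far from the other 3, and chance alone marks about 1 group in 20. Uhrf1 was marked because Smchd1 null replicate 3 stood at 385 CPM while the others lay between 266 and 280 CPM. The share of Tdg in the summed CPM of Tdg, Tdg-ps and Tdg-ps2 was marked because Smchd1 null replicate 4 stood at 53.1% while the others lay between 49.45 and 50.04%.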

How the results depend on the processing

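Of the 8 tested members, 2 were called in the reported fit. None was called with voom alone, block weights, sample removal, edgeR, DESeq2, the replicate block (0) or wild-type replicates 2 and 3 summed, nor with edgeR or voom alone within batch 2, and 1 was called with chromosome medians removed. Between 0 and 3 were called when each line was left out. Without wild-type replicate 2 or 3 none was called, and the FDR of Smchd1 itself rose from 2.18e-05 to 0.0088 or 0.0065. RLE factors, a filter of 10 counts and an FDR of 0.1 gave 2 or 3. The share of all tested genes called under these settings is not given, so these counts have no background beside them. With no filter only Dnmt3a of the 8 was called, Tet2 had an FDR of 0.055, and Tet1 entered the fit and had an FDR of 0.044 on 0 to 2 counts per library, so that 2 of all members passed. The groups overlapped for every member (0 apart) on RLE- or TMM-scaled CPM. Smchd1 kept its call throughout, at -3.23 to -3.02. Dnmt3a and Tet2 kept their direction in all 20 alternatives and their call in 5 each, and Uhrf2 and Tet3 kept their direction in all 20. Values that changed sign were all small and under no setting passed the threshold. For Uhrf1 they were -0.13 with voom alone, -0.15 with edgeR and with DESeq2 and -0.23 with wild-type replicates 2 and 3 summed, and left-out lines gave -0.24 to 0.21. For Dnmt3b they were 0.050 with edgeR, 0.048 with DESeq2, 0.059 with the replicate block and 0.0051 with edgeR within batch 2, and left-out lines gave -0.28 to 0.21. For Tdg they were 0.011 with block weights, 0.013 with the replicate block, 0.032 with sample removal, 0.0074 without a filter, 0.016 with wild-type replicates 2 and 3 summed and 0.024 with chromosome medians removed, and left-out lines gave -0.056 to 0.039. For Dnmt1 left-out lines gave -0.020 to 0.34. The cause of these changes was not tested.

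The deviations of same-numbered lines had correlations of -0.15, 0.22 and -0.20, against a mean of 0.02 for other pairs. The numbers were not used to pair the samples in the reported fit. These 3 pairs cannot settle whether the lines were paired, as those numbered 2 and 3 share near-alike wild-type lines. The replicate block took the count of called members from 2 to 0. With wild-type replicates 2 and 3 so alike, the wild-type group holds less independent spread than 3 lines. Depth limits Tet1 and Dnmt3l, which stayed under 3 counts in every library, a level at which the call of Tet1 without a filter gives no fold.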
